A study of Mus musculus with 21 samples.

Results

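The 7 genes described here are the adult alpha-globin genes Hba-a1 and Hba-a2, the adult beta-globin genes Hbb-bs and Hbb-bt, and 3 further erythroid genes, Alas2, Slc4a1 and Bpgm. They were chosen by name among the 46517 genes of a count table, as genes whose transcripts mark blood left in heart tissue. The table comes from bulk RNA-sequencing of the left ventricle of 4 control (Notch3+/+) and 3 Notch3-/- mice. Each mouse gave 3 technical libraries, which makes 21. All mice were of the c57bl/6j strain and 10 to 14 months old, and the Notch3-/- mice carry a targeted insertion of lacZ in the Notch3 gene. The sex of the sequenced mice is not given. Hearts were frozen fresh, and the protocol for the RNA mentions no perfusion. The values are whole reads counted per gene, here called counts. Reads of the 3 technical libraries from a mouse were added up, and the mouse is the replicate.

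Haemoglobin is a tetramer of alpha and beta chains, each holding a heme, and its transcripts are by far the most abundant of young red cells. Mature red cells of mammals have no nucleus, so the globin RNA of blood sits in reticulocytes, the youngest circulating red cells, which lose it as they mature. Alas2 encodes the erythroid form of the first enzyme of heme synthesis. Slc4a1 encodes band 3, the anion exchanger of the red cell membrane. Bpgm encodes bisphosphoglycerate mutase, which makes the 2,3-bisphosphoglycerate that lowers the oxygen affinity of haemoglobin.

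The adult globin genes come in near-identical copies, which bears on every count below. Hba-a1 (ENSMUSG00000069919) lies on the plus strand at chr11:32283511-32284465 and Hba-a2 (ENSMUSG00000069917) on the same strand at chr11:32296489-32297298 (GRCm38, GENCODE vM21). Hbb-bs (ENSMUSG00000052305) lies on the minus strand at chr7:103826534-103828096 and Hbb-bt (ENSMUSG00000073940) at chr7:103812524-103813996. The coding sequences of Hba-a1 and Hba-a2, both 429 bases long, differ at 1 base, C381T, and those of Hbb-bs and Hbb-bt, both 444 bases long, also differ at 1 base, C417T. Positions count from 1 at the first base of the coding sequence, and the base of Hba-a1 or Hbb-bs stands first. Neither change alters the protein: the 2 alpha chains share all 142 residues and the 2 beta chains all 147. The coding bases around each difference, from base 331 to 429 of the alpha-globin genes and from base 367 to 444 of the beta-globin genes, show how little sets the copies apart, with the base that differs in capitals:
Hba-a1: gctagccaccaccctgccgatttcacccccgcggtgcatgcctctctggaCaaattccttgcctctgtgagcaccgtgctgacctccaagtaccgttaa
Hba-a2: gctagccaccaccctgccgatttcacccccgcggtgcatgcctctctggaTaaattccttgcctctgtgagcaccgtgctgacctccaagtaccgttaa
Hbb-bs: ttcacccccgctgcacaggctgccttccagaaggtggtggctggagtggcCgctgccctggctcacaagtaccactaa
Hbb-bt: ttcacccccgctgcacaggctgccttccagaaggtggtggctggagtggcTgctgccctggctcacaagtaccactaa

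Reads were 51 bases long, so the windows of 51 bases that only 1 gene holds were counted over all annotated transcripts. Hba-a2 held 67 such windows of its 615, of which 51 cover the base at 381, and Hba-a1 held 212 of 760. Of the windows of Hba-a1, 161 lie before the start site that RefSeq gives for the gene. Hbb-bs held 335 of 715 and Hbb-bt 273 of 653. The erythroid genes outside the clusters were better separated. Alas2 (ENSMUSG00000025270, chrX:150547375-150570638, plus strand) held 2125 of 2398, and 262 of its other windows lie in Apex2, annotated on the opposite strand. Slc4a1 (ENSMUSG00000006574, chr11:102348824-102366203, minus strand) held all of its 4884 windows and Bpgm (ENSMUSG00000038871, chr6:34476207-34505613, plus strand) all of its 3580. How the authors counted reads that match more than 1 place, and whether strand was used, is not given in the sources used here. The split of counts within the alpha pair and within the beta pair is therefore uncertain. Their sums are uncertain too if reads in the 548 windows that the alpha pair shares and the 380 that the beta pair shares were discarded, which was not tested.

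The alpha-globin and beta-globin genes lie on different chromosomes, and their levels varied together among the mice, as described below. Their promoters are shown for the short motifs they share. RefSeq start sites were available for 6 of the 7 genes, all but Slc4a1. Bases before the start site are printed from RefSeq (GRCm38.p6), 5′ to 3′ on the gene's strand, with 4 motifs in capitals. They are GATAA, the core bound by erythroid factors such as Gata1, then CACCC, bound by Klf1 and related factors, then CCAAT, bound by the NF-Y complex, and TATAA, the box near the start of many genes. Both strands were searched, and neighbouring matches may overlap. The stretches are chr11:32283422-32283671 for Hba-a1, chr7:103827929-103828178 for Hbb-bs and chr7:103813924-103814173 for Hbb-bt, and GENCODE starts the longest transcripts 161, 168 and 73 bases earlier than RefSeq:
Hba-a1: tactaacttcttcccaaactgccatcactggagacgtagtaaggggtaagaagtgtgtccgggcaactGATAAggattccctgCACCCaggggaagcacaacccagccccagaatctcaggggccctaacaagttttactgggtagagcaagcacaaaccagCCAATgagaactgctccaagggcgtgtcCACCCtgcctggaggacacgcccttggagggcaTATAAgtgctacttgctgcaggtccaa
Hbb-bs: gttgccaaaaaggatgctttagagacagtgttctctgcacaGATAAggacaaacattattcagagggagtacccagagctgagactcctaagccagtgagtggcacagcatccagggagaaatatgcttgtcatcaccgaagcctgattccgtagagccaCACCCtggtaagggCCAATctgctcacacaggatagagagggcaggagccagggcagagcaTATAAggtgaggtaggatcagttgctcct
Hbb-bt: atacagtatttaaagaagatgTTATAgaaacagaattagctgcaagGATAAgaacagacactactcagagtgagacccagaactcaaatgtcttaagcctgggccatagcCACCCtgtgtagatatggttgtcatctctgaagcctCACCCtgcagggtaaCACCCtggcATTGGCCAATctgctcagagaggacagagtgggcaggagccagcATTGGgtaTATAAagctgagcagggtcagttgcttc
The window searched runs from 250 bases before to 50 bases after each start. The promoter of Hba-a2 is identical to that of Hba-a1 over the 297 bases in which the windows overlap. All 4 globin promoters held all 4 motifs, a combination found in 1.51% of 32544 mouse promoters of the same length. Singly, GATAA was found in 25.3% of these promoters. The share was 57.7% for CACCC and 37.4% for CCAAT, and the box TATAA was found in 24.8%. The promoter of Alas2 lacked the CCAAT motif alone, and that of Bpgm had no motif but that one. These are matches of letters and were not tested as binding sites.

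A control mouse had between 3046326 and 4638786 counts in total and a Notch3-/- mouse between 3828763 and 5167869, while single libraries ran from 464390 to 2427783, a 5.23-fold range. For Notch3, the controls gave 174, 200, 245 and 185 counts and the Notch3-/- mice 22, 36 and 25, and it was the only gene called among the 14324 tested (log2 fold change -3.16 ± 0.23 SE, adjusted p = 0.00168, edgeR quasi-likelihood test with Benjamini-Hochberg adjustment). A gene was called at an adjusted p under 0.05 and a fold change of at least 1.5. All 9 cardiomyocyte markers examined, such as Myh6 and Ttn, were detected in every mouse. Notch3-/- mice 1 and 2 also stand apart by RNA typical of liver. The albumin gene Alb gave 6240 and 8913 counts there, against 354 in Notch3-/- mouse 3 and at most 385 in a control mouse. In whole tissue, fewer cells of a type and less RNA per cell cannot be told apart.

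The alpha-globin genes had low and even counts in control hearts. For Hba-a1, controls 1 to 4 gave 151, 160, 157 and 150 counts, and Notch3-/- mice 1 to 3 gave 105, 168 and 106. For Hba-a2, the controls gave 189, 179, 185 and 174 counts, and the Notch3-/- mice gave 144, 201 and 140. In counts that are not scaled to depth, Notch3-/- mice 1 and 3 were thus below every control mouse for both genes. Notch3-/- mouse 2, the mouse with the highest total, was above every control mouse. As CPM (counts per 1000000 counts, scaled with TMM factors), Hba-a1 was 42.0 ± 8.57 (SD, n = 4) in control and 27.7 ± 7.47 (SD, n = 3) in Notch3-/- hearts, and the groups overlapped. Hba-a2 was 49.7 ± 11.7 CPM (SD, n = 4) and 35.6 ± 8.25 CPM (SD, n = 3), also with overlap. On the CPM scale Notch3-/- mouse 2 lay within the control range for both genes, at 34.7 for Hba-a1 and 41.5 for Hba-a2. Notch3-/- mouse 3 was below every control mouse for both genes, and Notch3-/- mouse 1 for Hba-a1 alone.

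The beta-globin genes divided the Notch3-/- mice in a similar way in counts, though mouse 2 was above every control mouse for Hbb-bt alone. Hbb-bs had the most counts of the 7 genes in 5 of the 7 mice, with 608, 619, 595 and 534 in the controls against 466, 612 and 442 in Notch3-/- mice 1 to 3. Hbb-bt gave 185, 241, 246 and 201 counts in the controls, and its counts in the Notch3-/- mice were 175, 267 and 131. In counts, Notch3-/- mice 1 and 3 were again below every control mouse for both genes. On the CPM scale Hbb-bs was 160.0 ± 32.9 (SD, n = 4) in control and 112 ± 25.3 (SD, n = 3) in Notch3-/- hearts. The groups of Hbb-bs did not overlap: the lowest control mouse had 128 CPM and the highest Notch3-/- mouse 127 CPM. In counts they did overlap. On the CPM scale Notch3-/- mice 1 and 2 were alike for Hbb-bs, at 126.8 and 126.3. Hbb-bt was 58.3 ± 6.84 CPM (SD, n = 4) and 42.4 ± 16.0 CPM (SD, n = 3) and overlapped.

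**Figure D1:**
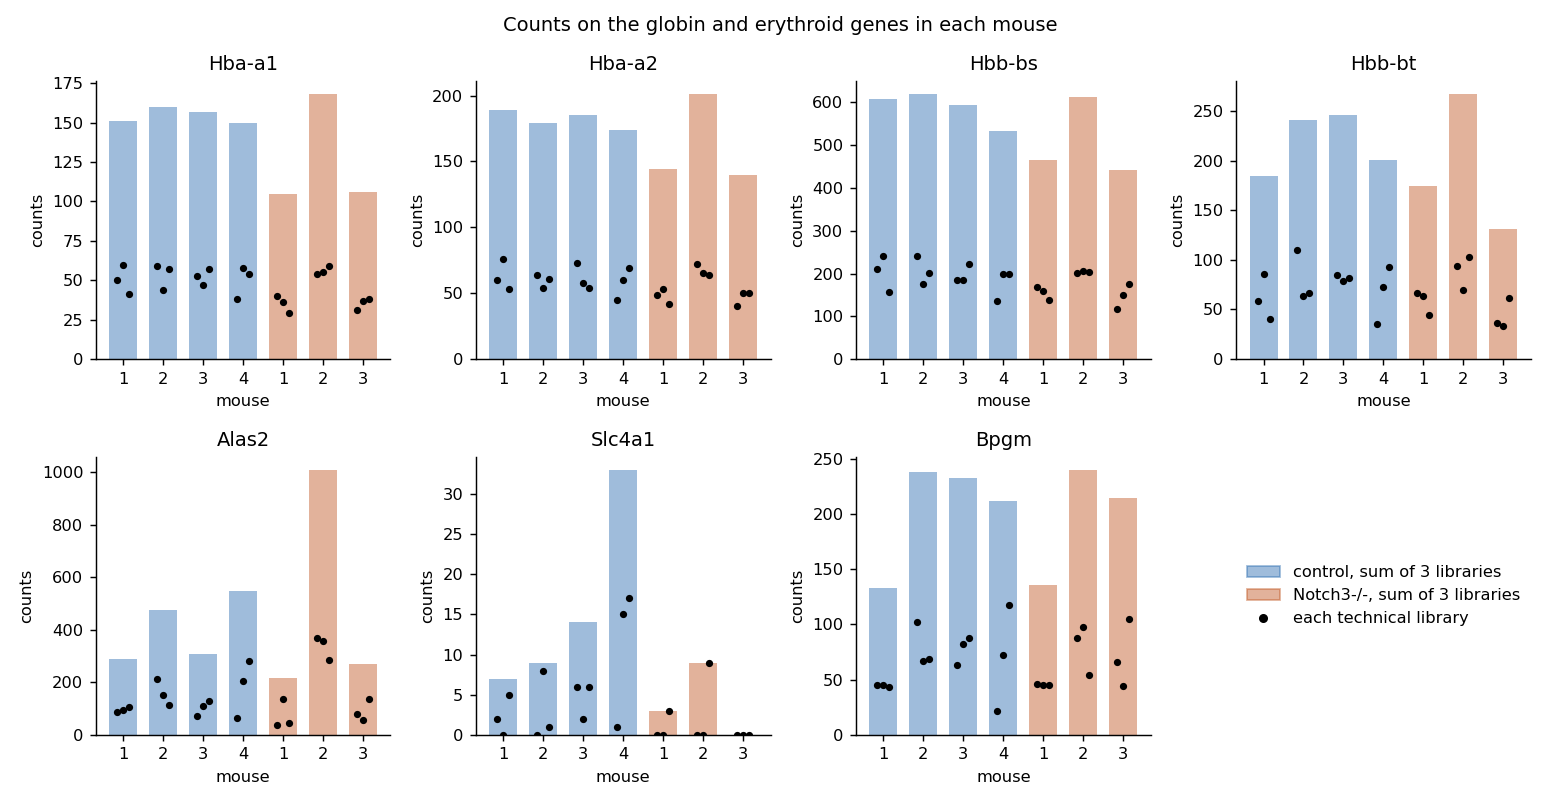
Counts on each of the 7 genes by mouse (x axis, mouse number within genotype). Bars are the sum of the 3 technical libraries, points are the single libraries. In these counts, which are not scaled to depth, Notch3-/- mice 1 and 3 are the lowest of the 7 mice for the 4 globin genes. Alas2 peaks at 1008 counts in Notch3-/- mouse 2 and Slc4a1 at 33 counts in control mouse 4.

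None of the differences passed the test. Of the 7 genes, 6 were tested and 0 were called by edgeR, against 0.00698% of all genes tested. At an unadjusted p under 0.05, 2 of the 6 were lower in Notch3-/- hearts (Hba-a1 and Hbb-bs), a count to be read beside 2.81% of all genes. The log2 fold change of Notch3-/- over control was -0.60 ± 0.23 (SE) for Hba-a1, -0.48 ± 0.23 for Hba-a2, -0.52 ± 0.21 for Hbb-bs and -0.46 ± 0.25 for Hbb-bt. The corresponding adjusted p-values (edgeR, over all genes) were 0.417, 0.506, 0.434 and 0.565. The median over all genes tested was 0.00. Hbb-bs was the only tested member without overlap between the genotypes. Of all genes tested, 3.66% were lower in this way and 4.71% higher. DESeq2 tested all 7 genes and called 0, against 601 of all 28735 genes it tested. Of the 7, 4 were lower at an unadjusted p under 0.05, beside 1.65% of all genes. Limma-voom called 0 of 6, against 1 of all 14324 genes, with 2 lower under 0.05, beside 2.89% of all genes.

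The size of the globin difference moved with the way depth was handled. Within a mouse, the 3 technical libraries differ in depth alone as far as the labels say, so counts should rise in proportion to the library total. Across the 21 libraries, with each mouse given its own level, the slope of log2 counts on log2 library total was 0.29 ± 0.10 (SE) for Hba-a1, 0.27 ± 0.10 for Hba-a2, 0.38 ± 0.09 for Hbb-bs and 0.75 ± 0.16 for Hbb-bt, where 1 means proportional. Alas2 (1.26 ± 0.17) and Bpgm (0.98 ± 0.19) rose about in proportion. Among 9801 genes with a mean of at least 20 counts the median slope was 1.15, 5% of genes lay below 0.65 and 5% above 1.62, and 260 genes (2.65%) were under 0.5. Hba-a1, Hba-a2 and Hbb-bs are among these. A slope under 1 means that the CPM of the gene falls as a library gets deeper. The 2 deepest of the 7 mice are Notch3-/- mice 2 and 3, while Notch3-/- mouse 1 is shallower than control mice 2 and 3. The part of depth in the globin difference was not tested.

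**Figure D2:**
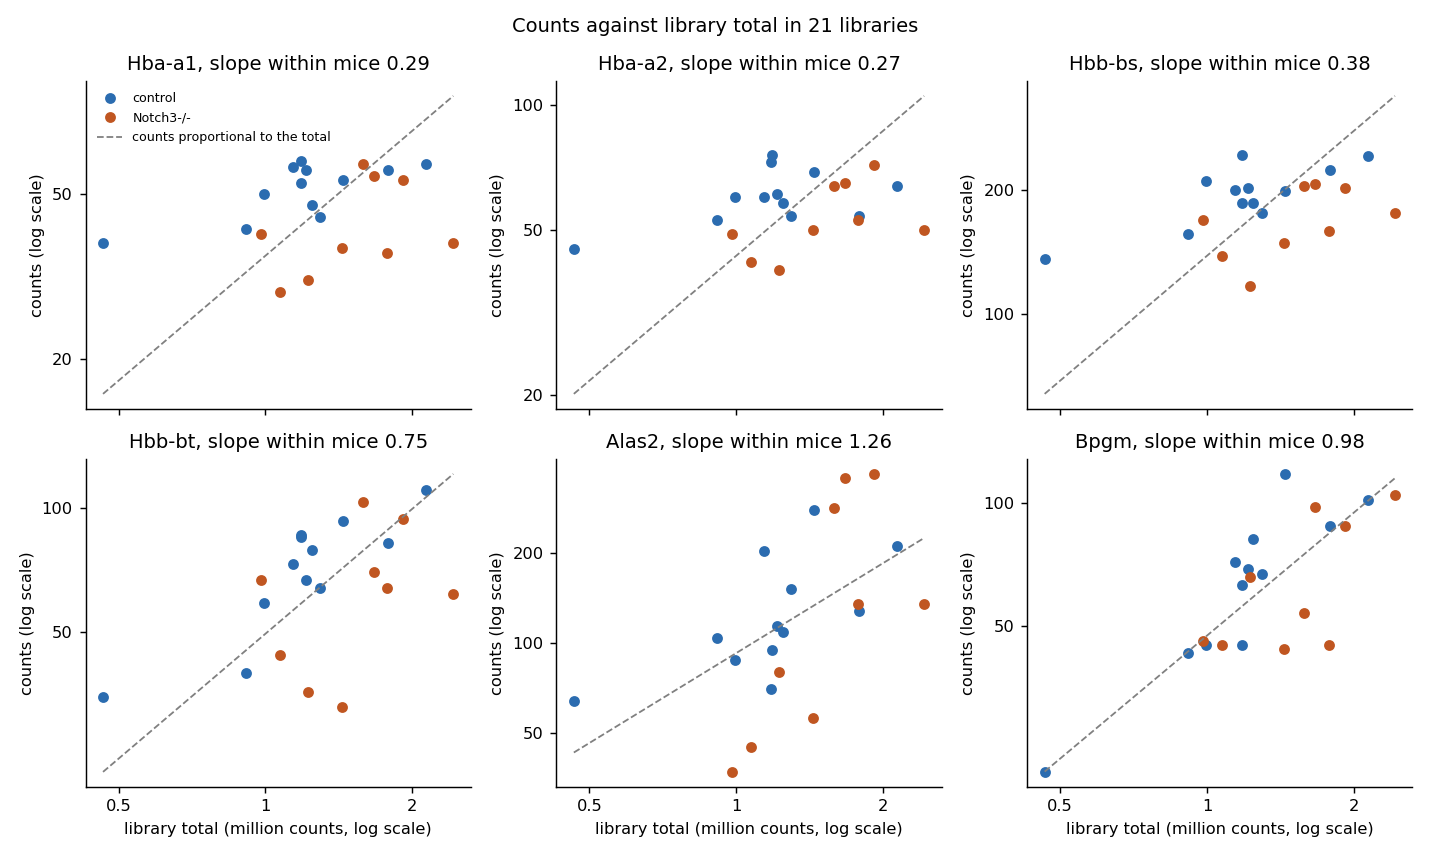
Counts on 6 of the genes in each of the 21 libraries (y axis, log scale) against the library total (x axis, log scale), coloured by genotype. The dashed line marks counts proportional to the total. Hba-a1, Hba-a2 and Hbb-bs rise far less than the line (slopes 0.29, 0.27 and 0.38), while Alas2 and Bpgm follow it.

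Density, the counts per exon base, was measured beside the slopes. The densest gene of each library, among genes with 200 or more exon bases, held between 1.76 and 1.97 counts for every exon base, and none reached 2. Slopes fell with density, from a median of 1.20 in the 5807 genes with the fewest counts per exon base to 0.60 in the 195 genes with the most. In the classes that hold the flat globin genes the median slope was 1.17 (Hba-a1), 1.07 (Hba-a2) and 0.91 (Hbb-bs), far above the slopes of these genes. Mb, which encodes myoglobin, the oxygen store of heart muscle, had 3845 to 4398 counts in all 7 mice and a slope of 0.17. The globin genes stayed well under 2 counts per exon base (at most 0.315 for Hbb-bs). Their own windows, counted above, are far fewer than their exon bases. A limit on own windows bears on these counts only if shared reads were discarded, which is not known. Against 2 reads for each of the 51 windows over the base that differs, Hba-a1 reached 28.4 to 58.8% in a library and Hba-a2 39.2 to 74.5%. These windows are only part of the 212 own windows of Hba-a1 and the 67 of Hba-a2. Their percentages are therefore not on the same basis as those that follow, and would be lower over all own windows. Against 2 reads for each of their own windows, Hbb-bs reached 17.5 to 36.1% and Hbb-bt 6.04 to 20.1%, and Alas2 at most 8.66%. The part of this limit in the slopes was not tested.

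With no scaling to depth, the ratio of mean counts gave a log2 fold change of -0.29 for Hba-a1, -0.17 for Hba-a2, -0.22 for Hbb-bs and -0.19 for Hbb-bt, values with no test. With the log2 library total as a covariate in a fit to the 21 libraries they were -0.35, -0.19, -0.27 and -0.42. Both treatments kept the sign of all 4 globin genes and reduced the size. Correcting instead for a ceiling of 2 reads per window, over the 51 windows that cover the differing base for Hba-a1 and Hba-a2 and over all own windows for Hbb-bs and Hbb-bt, gave -0.69, -0.57, -0.55 and -0.47. These 3 treatments were chosen after the data were seen.

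The 4 adult globin genes together took a very small share of the counts. This need not be their share of the RNA, since reads shared between copies may have been discarded. Counts of Hba-a1, Hba-a2 and Hbb-bs also did not rise in proportion to depth. The 4 genes made up 0.0366% (95% Wilson interval 0.0346 to 0.0388), 0.0258% (0.0244 to 0.0274), 0.0281% (0.0266 to 0.0298) and 0.0348% (0.0327 to 0.0369) of the counts of controls 1 to 4. In Notch3-/- mice 1 to 3 the share was 0.0232% (0.0218 to 0.0248), 0.0241% (0.0228 to 0.0255) and 0.0161% (0.0150 to 0.0172). Control mice averaged 0.0313% ± 0.00518 (SD, n = 4) and Notch3-/- mice 0.0212% ± 0.00441 (SD, n = 3), without overlap between mice. In summed globin counts the groups did overlap, with 1059 to 1199 in control mice against 890, 1248 and 819 in Notch3-/- mice 1 to 3. The separation appears only after division by the total, and the part of depth in it was not tested. Single libraries did overlap, and the highest share, 0.0547%, came from the shallowest library, technical library 1 of control mouse 4. The lowest share, 0.0134%, came from the deepest library, technical library 3 of Notch3-/- mouse 3. The intervals treat each read as independent and leave out the spread between libraries and between mice. PCR copies carry no molecular identifiers, so even the counting error may be larger. For technical libraries 1 and 3 of control mouse 4 the intervals did not overlap, at 0.0484 to 0.0618% and 0.0261 to 0.0316%.

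**Figure D3:**
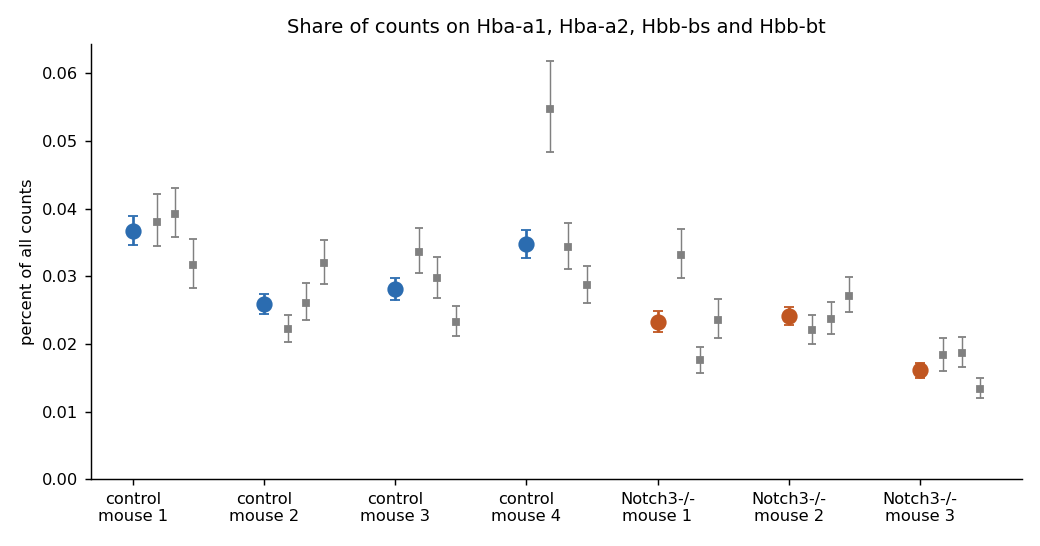
Percent of all counts on the 4 adult globin genes (y axis). Large points are mice, coloured by genotype, and grey squares are their 3 technical libraries, all with 95% Wilson intervals. Control mice lie between 0.0258 and 0.0366% and Notch3-/- mice between 0.0161 and 0.0241%, while the libraries of 1 mouse spread as widely as 0.0287 to 0.0547%.

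Alas2 behaved differently from the globin genes. Controls 1 to 4 gave 287, 476, 307 and 546 counts, and Notch3-/- mice 1 to 3 gave 217, 1008 and 271. The high value of Notch3-/- mouse 2 was present in each of its technical libraries, with 368, 356 and 284 counts, while no other library passed 279. The CPM was 111 ± 47.7 (SD, n = 4) in control and 106 ± 88.6 (SD, n = 3) in Notch3-/- hearts, so the means were close and the Notch3-/- spread was wide. The log2 fold change was -0.06 ± 0.49 (SE, adjusted p = 0.982, edgeR). Without Notch3-/- mouse 2 it was -1.02, and without control mouse 4 it was 0.27. Apex2, the gene on the other strand that shares windows with Alas2, had 150 to 224 counts in control and 180, 289 and 189 in Notch3-/- mice, so it did not show a peak of the size of that of Alas2. Notch3-/- mouse 2 is also the mouse with the most Alb counts, and the part of liver RNA in its Alas2 value was not tested.

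Slc4a1 was near the detection limit. Its counts were 7, 9, 14 and 33 in controls 1 to 4, and 3, 9 and 0 in Notch3-/- mice 1 to 3. Single libraries of control mouse 4 gave 1, 15 and 17 counts, and in Notch3-/- mouse 2 all 9 came from 1 library. A count of 0 of 5086740 in Notch3-/- mouse 3 allows up to 3 counts. The CPM was 4.57 ± 4.25 (SD, n = 4) in control and 0.89 ± 0.93 (SD, n = 3) in Notch3-/- hearts. The groups did not overlap on the CPM scale, with 1.86 CPM in both control mouse 2 and Notch3-/- mouse 2 after rounding. Slc4a1 failed the filter on low counts, and in a fit without the filter its log2 fold change was -2.33 ± 0.85 (SE, adjusted p = 0.312, edgeR). It was -3.57 without Notch3-/- mouse 2 and -1.67 without Notch3-/- mouse 3.

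Bpgm had counts of a similar size in both genotypes. The controls gave 133, 238, 233 and 212 counts and the Notch3-/- mice 136, 240 and 215, so in each genotype mouse 1 was low and the others were alike. On the CPM scale it was 54.1 ± 11.4 (SD, n = 4) in control and 42.2 ± 6.52 (SD, n = 3) in Notch3-/- hearts, with overlap. The log2 fold change was -0.35 ± 0.19 (SE, adjusted p = 0.559, edgeR), and the ratio of mean counts without scaling was -0.05. Without control mouse 4 the log2 fold change was -0.21.

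Ratios between the genes of a mouse need no scaling to its total, but where the depth slopes of the genes differ they still move with depth. The alpha-globin counts per beta-globin count were nearly constant, at 0.429, 0.394, 0.407 and 0.441 in the controls against 0.388, 0.420 and 0.429 in Notch3-/- mice 1 to 3. Their coefficient of variation over the 7 mice was 4.70%. Hbb-bs per Hbb-bt ran from 2.29 to 3.37 and Hba-a2 per Hba-a1 from 1.12 to 1.37, subject to the uncertain split between copies. Alas2 per globin count varied far more. It was 0.253, 0.397, 0.260 and 0.516 in the control mice and 0.244, 0.808 and 0.331 in the Notch3-/- mice, with a coefficient of variation of 50.9%. The technical libraries of control mouse 4 gave 0.252, 0.519 and 0.674, lowest in the shallowest library, and those of Notch3-/- mouse 2, the deepest mouse, gave 0.872, 0.899 and 0.660. No library of another mouse passed 0.447. The part of depth in these ratios was not tested. Bpgm per globin count ran from 0.117 in control mouse 1 to 0.263 in Notch3-/- mouse 3, with a coefficient of variation of 23.8%. Globin counts per Mb count were 0.277 ± 0.00602 (SD, n = 4) in the controls against 0.213, 0.304 and 0.189 in Notch3-/- mice 1 to 3, on both sides of the control values.

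**Figure D4:**
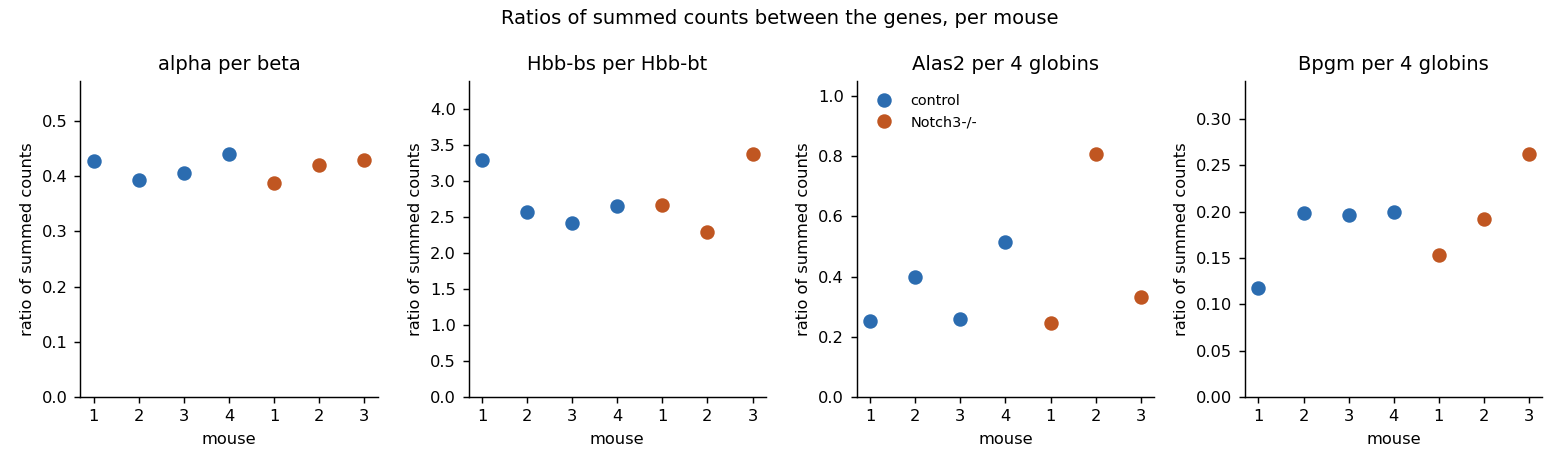
Ratios of summed counts (y axis) in each mouse (x axis), coloured by genotype: alpha-globin per beta-globin counts, Hbb-bs per Hbb-bt, and Alas2 and Bpgm per count of the 4 globin genes. The alpha per beta ratio stays between 0.388 and 0.441, while Alas2 per globin count runs from 0.244 to 0.808.

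Levels between genes were compared per kilobase of exon. The mean over the 7 mice was 182 ± 49.0 CPM per kb (SD, n = 7) for Hbb-bs, 73.3 ± 19.1 for Hbb-bt, 65.5 ± 18.2 for Hba-a2, 45.2 ± 25.5 for Alas2, 44.2 ± 13.2 for Hba-a1, 13.7 ± 3.04 for Bpgm and 0.61 ± 0.74 for Slc4a1. Hbb-bs stood above the next gene by more than their spreads. The spreads over mice of Hbb-bt and Hba-a2 overlapped, as did those of Hba-a2, Alas2 and Hba-a1, and Bpgm and Slc4a1 were each clearly lower. Within a mouse, Hba-a2 lay above Hba-a1 in all 7. Mb stood at 697 ± 139 CPM per kb (SD, n = 7). These levels rest on globin counts that did not rise in proportion to depth, and on all exon bases, whether or not another copy shares them. How shared reads were counted could change the order of the globin genes, which was not tested.

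The globin genes varied together among the mice. Correlations with Hbb-bs were computed on log2 CPM over the 7 mice for the other 6 genes, with two-sided exact permutation p-values adjusted over these 6. Pearson's r was 0.974 for Hba-a1 (adjusted exact permutation p = 0.00476), 0.989 for Hba-a2 (0.00476) and 0.896 for Hbb-bt (0.00873). Spearman's rho was 0.857 for each of these (adjusted exact permutation p = 0.0357). For Slc4a1, r was 0.805 (adjusted exact permutation p = 0.0705) and rho 0.857 (0.0357). Alas2 (r = 0.491, rho = 0.286) and Bpgm (r = 0.461, rho = 0.429) did not pass, with adjusted exact permutation p-values of 0.282 and 0.282 for r and 0.556 and 0.424 for rho. Without control mouse 1 and Notch3-/- mouse 3, the mice farthest from the median of Hbb-bs, r was 0.934, 0.963 and 0.889 for Hba-a1, Hba-a2 and Hbb-bt, 0.949 for Slc4a1, 0.403 for Alas2 and 0.847 for Bpgm. With counts that were not scaled, r was 0.952, 0.954 and 0.850 for the globin genes, 0.631 for Slc4a1, 0.544 for Alas2 and 0.262 for Bpgm. Over the 5 mice left, r of the 3 globin genes no longer passed, with adjusted exact permutation p-values of 0.05, 0.06 and 0.05, while without scaling it did (0.0179, 0.0179 and 0.0214). Spearman's rho of these 3 genes did not pass in either case, with adjusted exact permutation p-values of 0.35, 0.42 and 0.35 over the 5 mice and 0.0738, 0.133 and 0.133 without scaling. For Slc4a1 rho did not pass either, with adjusted exact permutation p-values of 0.35 over the 5 mice and 0.36 without scaling. The globin genes share the library, its depth and, within a pair, most of their sequence. The correlations pool both genotypes, whose mean globin CPM differ, and correlations within genotypes were not computed.

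Among all genes tested, Hba-a2 had the highest r with Hbb-bs over the 7 mice and Hba-a1 the third highest. Hbb-bt ranked 59, Alas2 2056 and Bpgm 2277. The 10 genes outside the group with the highest r were Gpr157, Phyh, Gm37048, Gm9806, Gm14148, Gm38056, Hey2, Mir8114, U2af1 and Sap130, with r from 0.940 to 0.975. Over the 21 libraries the r of these 10 lay between 0.172 and 0.799, against 0.974 for Hba-a1, 0.951 for Hba-a2 and 0.780 for Hbb-bt. These 10 were picked for a high r over the 7 mice and the globin genes were not, so the contrast is not between like sets. The r over libraries used log2 CPM without TMM factors, which falls with depth for genes with a slope under 1. The part of depth in it was not tested. Mb ranked 145 with r = 0.852, and 0.841 over the 21 libraries, beside a depth slope that is also low.

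Several other globin and erythroid genes had few or no counts. Of the other globin genes, the embryonic Hba-x, Hbb-y, Hbb-bh1 and Hbb-bh2 had 0 counts in every mouse, and Hbq1a and Hbq1b had at most 1. Of the 9 genes of this list 2 were tested, Mb and Cygb, with log2 fold changes of -0.27 and -0.20, and 0 were called. Ngb had at most 2 counts. The red cell membrane genes Epb42, Rhag and Kel had at most 7 counts in a mouse. The erythroid transcription factors Gata1 and Gfi1b had at most 1 count, and Klf1 at most 11, in Notch3-/- mouse 2. Trim58 and Hemgn, of the reticulocyte genes, were each seen in a single mouse with 3 counts. Trim10 had 31 counts in Notch3-/- mouse 2 and at most 5 in the others. These genes were named after their values were seen.

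Of the 10 genes of heme synthesis and its transport, all were tested and 0 were called. At an unadjusted p under 0.05 (edgeR), 1 was higher and 0 lower, beside 7.46% and 2.81% of all genes. The median log2 fold change of the 10 genes was 0.04. It was between -0.0037 (without control mouse 3) and 0.12 (without control mouse 2) when 1 mouse was left out. The 3 most abundant were Alas1, the housekeeping form of the enzyme that Alas2 encodes, at 364 ± 40.4 CPM in control (SD, n = 4) and 407 ± 31.7 CPM in Notch3-/- hearts (SD, n = 3), Fech at 339 ± 30.6 and 333 ± 13.5 CPM, and Urod at 126 ± 9.63 and 118 ± 5.02 CPM. Of the 15 red cell membrane genes 8 were tested and 0 called, with a median of -0.14. It was -0.32 without Notch3-/- mouse 1, -0.29 without mouse 3, -0.0084 without mouse 2 and -0.03 within the mice whose labels begin with k. The most abundant were Tmod1, Ank1 and Epb41, of which Tmod1 and Ank1 are also expressed in striated muscle. Of 12 reticulocyte genes 8 were tested and 0 called, and the median was -0.31. At an unadjusted p under 0.05, 1 was lower, beside 2.81% of all genes. Leaving out 1 mouse gave -0.14 without Notch3-/- mouse 3, -0.18 without control mouse 4, -0.19 without Notch3-/- mouse 1 and -0.49 without Notch3-/- mouse 2. Bnip3l, a mitophagy receptor, had a log2 fold change of -0.21, Xpo7 of 0.20 and Ube2o of -0.43. Of 9 erythroid transcription factors 4 were tested and 0 called, led in abundance by Sox6, Lmo2 and Bcl11a. Their median was -0.13, but -0.33 without Notch3-/- mouse 3, -0.06 without Notch3-/- mouse 2, -0.04 without Notch3-/- mouse 1 and -0.02 without control mouse 4.

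Among red cell enzymes and genes that handle haemoglobin and iron, the genes at an unadjusted p under 0.05 were higher in Notch3-/- hearts, as were 7.46% of all genes tested, against 2.81% lower. Of 8 genes in the first list 6 were tested and 0 called, with 2 higher at an unadjusted p under 0.05 and a median log2 fold change of 0.31, which was 0.12 without Notch3-/- mouse 2. Cat, which encodes catalase, ran from 1446 to 2279 counts among controls, and Notch3-/- mice 1 to 3 gave 2159, 4657 and 2627. Prdx2 and Eif2ak1 had log2 fold changes of -0.26 and 0.14. Of 12 genes for clearance and iron 10 were tested and 0 called, with 3 higher and a median of 0.24. This median was 0.09 without Notch3-/- mouse 2 and 0.52 within the mice whose labels begin with k. Hpx, which encodes hemopexin, the plasma carrier of free heme, gave at most 46 counts in a control, against 1503, 4251 and 37 in Notch3-/- mice 1 to 3. The ferritin genes Fth1 and Ftl1 had log2 fold changes of -0.23 and 0.41. The hepatocyte list, with 11 of 12 genes tested, had 0 called and 11 higher at an unadjusted p under 0.05, with a median of 6.83. Its summed level was 12.2 to 137 CPM in control and 128 to 9118 CPM in Notch3-/- hearts. Among its most abundant genes, Alb, Ahsg and Apob, Notch3-/- mouse 2 was highest, then mouse 1, then mouse 3. The part of liver RNA in the globin values was not tested.

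Markers of other blood cells were scarce. Of 10 platelet genes 4 were tested and 0 called, with 1 (Ppbp) lower at an unadjusted p under 0.05, a median log2 fold change of -0.60 and a summed level of 33.0 to 52.4 CPM in control and 24.8 to 35.7 CPM in Notch3-/- hearts. The median was 0.03 without control mouse 1, -0.14 without control mouse 3, -0.30 without control mouse 4, -0.34 without Notch3-/- mouse 1 and -1.06 without Notch3-/- mouse 2. Pf4 (platelet factor 4) gave 84, 90, 87 and 40 counts in the controls against 63, 87 and 99 in the Notch3-/- mice. Ppbp gave 11, 8, 15 and 35 counts in the controls against 4, 3 and 8 in the Notch3-/- mice, highest in control mouse 4, where Slc4a1 was highest too. Itga2b was also highest there, with 37 counts. Of 10 neutrophil genes 3 were tested and 0 called, with a median of 0.33, Camp and Mmp8 had 0 counts in every mouse, and the summed level was 8.81 to 18.1 CPM in control and 14.4 to 17.4 CPM in Notch3-/- hearts. That median was -0.12 within the mice whose labels begin with k, 0.02 without control mouse 1, 0.10 without Notch3-/- mouse 3 and 0.59 without control mouse 3. Csf3r, Cxcr2 and Lcn2 led this list in abundance. The B cell list had 3 of 6 genes tested and 0 called. At an unadjusted p under 0.05, 2 were higher, beside 7.46% of all genes. The median of this list was 0.99 (0.65 without Notch3-/- mouse 2). Ighm had 39 to 72 counts in control and 86, 185 and 106 counts in Notch3-/- mice. No T cell gene passed the filter. The median log2 fold change was 0.08 for endothelial genes, among them Pecam1, Kdr and Tie1, and -0.23 for cardiomyocyte genes, among them Ttn, Myh6 and Actn2, with 0 called in either list. When 1 mouse was left out these ran from 0.03 (without control mouse 3) to 0.23 (without control mouse 4) and from -0.40 (without Notch3-/- mouse 1) to -0.14 (without Notch3-/- mouse 2), and the endothelial median was -0.02 within the mice whose labels begin with k.

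The direction of the globin difference was the same under every alternative, while its size was not. Over 23 or 24 alternatives per gene, the log2 fold change ran from -0.81 to -0.29 for Hba-a1, from -0.61 to -0.17 for Hba-a2, from -0.62 to -0.22 for Hbb-bs and from -0.82 to -0.19 for Hbb-bt, and none was called. Without Notch3-/- mouse 3, which had the lowest globin share, the values were -0.41, -0.30, -0.35 and -0.19. Without Notch3-/- mouse 2, all 7 genes were lower at an unadjusted p under 0.05, beside 2.21% of all genes in that fit, and still 0 were called. Without Notch3-/- mouse 3, 0 of 7 were lower at that p, beside 4.66% of all genes, and without control mouse 4, 0 of 6, beside 2.49%. Leaving out control mouse 1, 2 or 3 gave 1, 3 and 2 of 6, beside 2.102%, 2.828% and 2.308% of all genes. Leaving out Notch3-/- mouse 1 gave 1 of 7, beside 3.601%. Within the mice whose labels begin with k, 2 control and 3 Notch3-/-, the log2 fold change was -0.64, -0.50, -0.50 and -0.55 for the globin genes in the same order, -0.25 for Alas2, -2.95 for Slc4a1 and -0.56 for Bpgm. What the prefix marks is not given, and the mice with the other prefix are all controls.

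**Figure D5:**
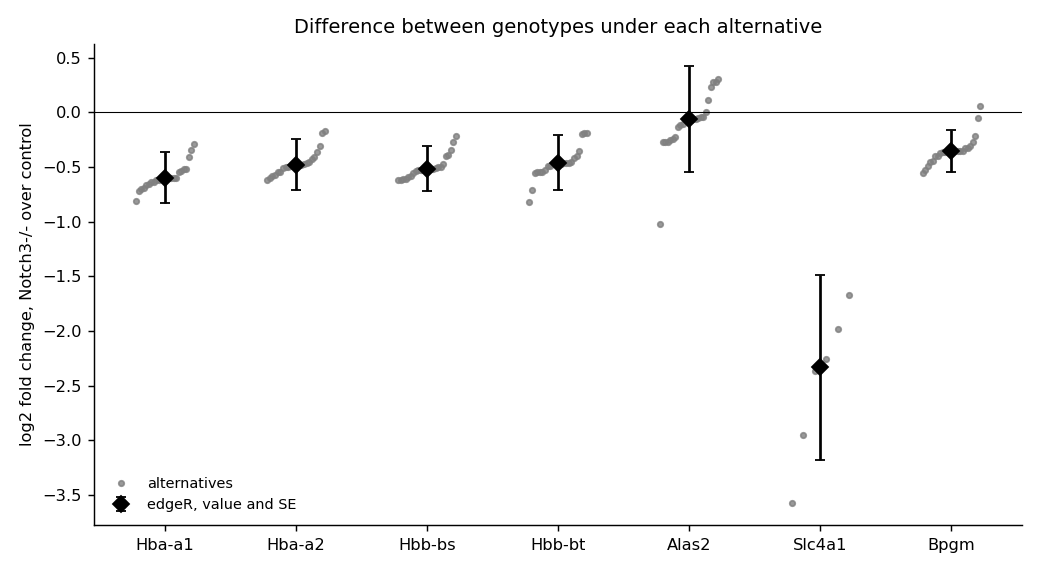
Log2 fold change of Notch3-/- over control hearts (y axis) for each gene. Diamonds with bars are the edgeR value and its SE (for Slc4a1 from the fit without a filter), and grey points are the alternatives. All points of the 4 globin genes and of Slc4a1 lie below 0, those of Alas2 run from -1.02 to 0.30 and those of Bpgm from -0.56 to 0.05.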

How the data were processed

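The authors deposited whole-number counts of reads per Ensembl gene for each of 21 libraries, not normalized; the submitters' processing notes name CASAVA and the mm10 build, and the aligner and counter are not given in the sources used here. Polyadenylated RNA was reverse transcribed, amplified by PCR, cut with Tn5 and sequenced as single reads. A further 92 lines for ERCC spike-ins, with 34 counts in all, were left out. Genes were named with GENCODE vM21, which holds 46005 of the 46517 identifiers. Counts of the 3 technical libraries were summed per mouse. Genotypes were compared in R 4.3.3 with edgeR 4.0.16 (filterByExpr, TMM, quasi-likelihood F-test, genotype as the only term, p adjusted over all genes), and with DESeq2 1.42.0 and limma 3.58.1 as alternatives. The study's thresholds were used, and its tool was DESeq2. Log2 CPM had a prior count of 2. Wilson intervals are at 95% and the floor is 3 counts. Separate mice are the replicates, and p-values measure the spread between them. The members and the 14 gene lists were chosen with earlier results of these data known. Genes named are the 7 members, the 3 most abundant and any called gene of each list, and the 10 genes most like Hbb-bs. Other names, and the treatments so marked, were chosen after their values were seen. Alternatives covered the tool, scaling, filters, each mouse, each technical library, the label prefix, thinning, summed copies and ceilings on counts. Sequences of coding regions come from GENCODE transcripts, promoter sequences come from RefSeq (GRCm38.p6), and no whole genome was searched.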

Additional observations from a re-analysis of the deposited data

Results flagged for a closer look

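Slc4a1 in the control mice was marked because 1 mouse lies far from the other 3. The 4 control values were 2.28, 1.86, 3.23 and 10.9 CPM, and the gap between control mouse 4 and the next mouse took up 0.848 of the range of the group (Dixon's ratio). The value rests on 33 counts. The other groups examined in this way, 15 with this one, had no such sample, and chance alone marks about 1 group in 20. In the same mouse Ppbp, Itga2b and Epb42, named after their values were seen, were also at their highest among the controls, with 35, 37 and 7 counts. Pf4 was at its lowest there, with 13.2 CPM. On the same scale Alas2, Bpgm, Hba-a1 and Hbb-bt were the highest of the controls there, with 180.1, 69.9, 49.5 and 66.3 CPM, and Hba-a2 and Hbb-bs the next to highest, with 57.4 and 176 CPM. In counts Hba-a1, Hba-a2 and Hbb-bs were the lowest of the controls, in the control mouse with the lowest total. The part of blood left in the tissue in these values was not tested.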

How the results depend on the processing

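No alternative called any of the 7 genes. The 4 globin genes kept their direction in the 23 or 24 run for each, and Slc4a1 in the 6 run for it. Alas2 changed sign in 6 of 24: its log2 fold change was between -1.02 and 0.27 when 1 mouse was left out, 0.11 with technical library 1 alone, 0.0029 with technical library 2 alone and 0.30 with counts that were not scaled. Bpgm changed sign in 1 of 24, at 0.054 with technical library 1 alone. The number of genes called over the whole table moved far more than the members did. Against 1 gene in the edgeR fit, 601 were called with DESeq2, which tested 28735 genes without the edgeR filter, 639 with no filter on low counts, 48, 31 and 77 with technical library 1, 2 or 3 alone, and from 1 to 936 when 1 mouse was left out (936 without Notch3-/- mouse 3). Restricted to mice with the k prefix, edgeR called 0 genes, with 745 higher and 204 lower at an unadjusted p under 0.05. The technical replicate numbers are shared between mice. A limma-voom fit to the 21 libraries with these numbers as a replicate block called 31 genes, against 1 with limma-voom on the sums of the 7 mice. Same-numbered libraries of different mice did not deviate together (median r = -0.01, over 0.1 in 3 of 63 pairs). The mean globin share of control mice was 0.0372% with technical library 1 alone. Corrected for a ceiling of 2 reads per window, as in the fold changes, it was 0.0394% in control and 0.0256% in Notch3-/- mice. Without the 2 mice farthest from the median of Hbb-bs, r was 0.934 for Hba-a1, 0.963 for Hba-a2 and 0.889 for Hbb-bt, with adjusted exact permutation p-values of 0.05, 0.06 and 0.05 over 5 mice. For Slc4a1 r was 0.843 with a prior count of 0.5, past the threshold. The causes of these shifts were not tested. Depth limits Slc4a1 most, with 0 to 33 counts per mouse.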
